A study of Rattus norvegicus with 21 samples.

Results

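The interferon response genes are a list of 42 genes of the interferon pathway and its targets, found on the array by gene symbol. Of these, 39 had a probe set on the Rat Gene 1.0 ST array, each with exactly 1, out of 14506 genes with a probe set of 1 gene symbol and 29214 probe sets in all. Ddx58, Ifnar2 and Parp14 had no probe set under these symbols and were not analysed here. The tested samples were 16 pituitary lesions of MENX rats, which are homozygous for a mutation of p27Kip1 (Cdkn1b), an inhibitor of cyclin-dependent kinases, and develop multifocal pituitary adenomas mainly of gonadotroph origin. They were compared with pituitaries of 5 wild-type rats of the same Sprague–Dawley white eye/Wistar–Kyoto background. The mutant rats were 7 to 12 months old and the wild-type rats were 6 months old, so age and genotype cannot be told apart. Several lesions carried the same sample number, so lesions were averaged to 9 adenoma values (6 females, 3 males), and each wild-type pituitary gave 1 value (2 females, 3 males). The numbers, ages and sexes are those of the labels, and the study's own text gives a different number and age for the mutant rats, so sample numbers may not match rats one to one and the ages are in doubt. All rats were kept under spf conditions.

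Interferons bind cell surface receptors whose associated JAK kinases phosphorylate STAT proteins. Type I interferons act through a complex of STAT proteins with IRF9, which binds the interferon-stimulated response element (ISRE), while interferon gamma acts mainly through STAT dimers that bind the gamma-activated site (GAS). The induced genes encode antiviral proteins, sensors of viral RNA, subunits of the immunoproteasome and the machinery that loads peptides onto MHC class I molecules, and most cell types can mount this response.

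The expression values are log2 values after RMA, a normalization that puts all arrays on 1 scale, so a difference of 1 means a 2-fold difference. The array medians lay between 6.36 and 6.53, and the correlation between any 2 arrays over all probe sets between 0.941 and 0.994. In the tissue check, the gonadotroph markers Cga, Gnrhr and Nr0b1 were higher in the adenomas, and Lhb and Fshb were lower. Of the other pituitary hormone markers, Pomc, Tshb, Gh1, Pou1f1 and Tbx19 were lower in the adenomas. Prl was not, with means of 13.77 in the adenomas and 13.69 in the wild type. In tissue RNA, fewer cells of a type and less RNA per cell cannot be told apart.

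Promoters of 4 antiviral genes are shown, chosen because they hold the letters of the response element. RefSeq promoter windows (GRCr8, 250 bases before to 50 after the annotated start) were found for 34 of the 39 genes. The ISRE core, GAAANNGAAA on either strand, occurred in 18 of these 34 windows (52.9%), against 3.92% of all 33469 windows. The GAS core TTCNNNGAA, which reads the same on both strands, occurred in 7 of 34 (20.6%), against 8.87% of all windows. Among the 6 antiviral genes with the largest excess in lesion 5, the lesion with the strongest response, that have a window, Rsad2, Oas1a, Ifit3 and Oas1b hold the ISRE core, whereas its letters are not in the windows of Mx1 and Oasl. The 160 bases before the start of these 4 genes are given 5′ to 3′ in the direction of the gene, with matches to the ISRE core in capitals.
Rsad2: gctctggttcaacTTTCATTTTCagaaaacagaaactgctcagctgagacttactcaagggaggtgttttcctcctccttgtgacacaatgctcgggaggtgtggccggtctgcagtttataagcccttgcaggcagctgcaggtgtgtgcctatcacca
Oas1a: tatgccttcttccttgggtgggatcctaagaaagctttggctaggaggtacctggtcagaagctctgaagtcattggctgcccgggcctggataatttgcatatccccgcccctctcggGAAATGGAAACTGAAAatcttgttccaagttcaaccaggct
Ifit3: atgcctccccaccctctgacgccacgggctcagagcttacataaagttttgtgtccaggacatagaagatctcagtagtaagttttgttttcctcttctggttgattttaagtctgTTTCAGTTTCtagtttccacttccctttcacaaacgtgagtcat
Oas1b: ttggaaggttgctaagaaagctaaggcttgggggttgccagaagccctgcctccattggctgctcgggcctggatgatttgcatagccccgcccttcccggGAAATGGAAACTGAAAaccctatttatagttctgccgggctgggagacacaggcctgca
These windows lie at chr6:48788121-48788280 (minus strand), chr12:41330306-41330465 (plus strand), chr1:241527166-241527325 (plus strand) and chr12:41395853-41396012 (minus strand) of GRCr8. In Oas1a and Oas1b, 2 overlapping matches form the same run of 16 letters, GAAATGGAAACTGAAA, beginning 41 bases before the start in Oas1a and 59 bases before it in Oas1b. A match is a description of the letters and not evidence of binding.

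The first question was whether the interferon response differed between MENX adenomas and wild-type pituitaries. Of the 39 genes, 3 were higher in the adenomas (Ifngr2, Stat3 and Ifngr1) and 3 were lower (Ifi44, Oasl and Tap2), while 33 did not pass the test (limma, Benjamini-Hochberg adjusted p under 0.05 over all probe sets). The background was 8.49% of all probe sets higher and 9.06% lower, so these counts were near those of the array as a whole. The median log2 difference of the 39 genes was -0.01, equal to the median of -0.01 over all genes. All 9 adenoma values lay above all 5 wild-type values for Ifngr2 and Stat3, and below them for Ifi44, which was the case for 2.66% and 2.16% of all probe sets.

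**Figure D1:**
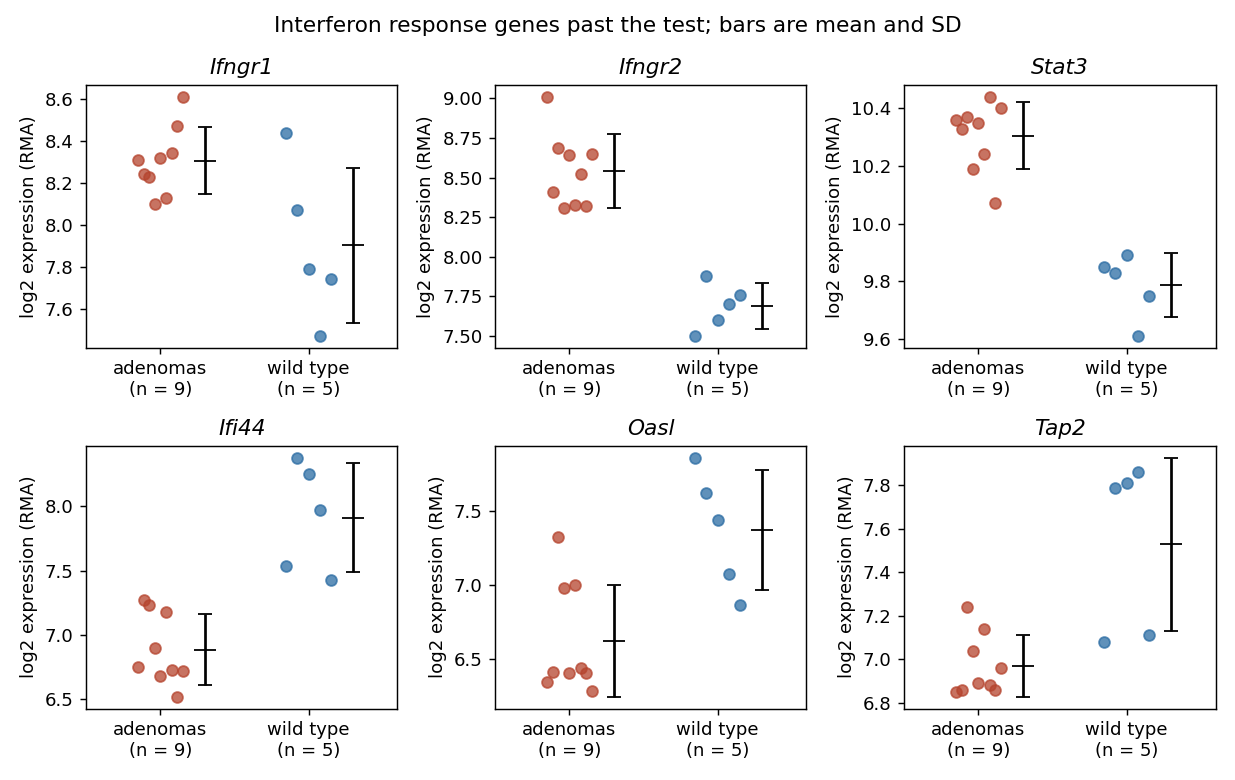
Log2 expression of the 6 interferon response genes that passed the test. Each point is an adenoma sample number (red, n = 9, lesions averaged) or a wild-type pituitary (blue, n = 5), and the bars give mean and SD. Ifngr2, Stat3 and Ifi44 show no overlap between the groups, and Ifngr1 overlaps most.

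The 3 receptor genes had a median log2 difference of 0.41, and 2 of them passed. Ifngr2, the signal-transducing chain of the interferon gamma receptor, had values of 8.31 to 9.01 with a median of 8.52 in the adenomas, against 7.50, 7.88, 7.60, 7.70 and 7.76 in wild-type pituitaries 1 to 5. This is a log2 difference of 0.85 (SE 0.11, 1.81-fold, adjusted p = 0.000276). Ifngr1, the ligand-binding chain, had values of 8.10 to 8.61 with a median of 8.31 in the adenomas, against 8.44, 8.07, 7.79, 7.47 and 7.74 in wild-type pituitaries 1 to 5. Only 2 adenomas exceeded wild-type pituitary 1, and the log2 difference of 0.41 (SE 0.13, adjusted p = 0.0457) was close to the threshold. It was lost when any 1 of adenomas 1, 2, 3, 5, 7, 8 and 9 or wild-type pituitaries 3, 4 and 5 was left out, the difference then ranging over all 14 such fits between 0.30 and 0.54. Sample numbers begin with 08 or 09, and among those with 08 alone the Ifngr1 difference was -0.01 (adjusted p = 0.974), against 0.72 (adjusted p = 0.016) among those with 09. Ifnar1, a chain of the type I interferon receptor, averaged 7.97 ± 0.19 in the adenomas and 7.74 ± 0.26 in the wild type (SD, n = 9 and 5), with an adjusted p of 0.197.

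Of the 8 transcription factors only Stat3 passed. Stat3, which transmits signals of the interleukin-6 family as well as of interferons, had values of 10.07 to 10.44 with a median of 10.35 in the adenomas, against 9.85, 9.83, 9.89, 9.61 and 9.75 in wild-type pituitaries 1 to 5. The log2 difference of 0.52 (SE 0.074, adjusted p = 0.000397) passed in every alternative fit, though at 1.44-fold it was under the 2-fold minimum. Irf1, Irf3, Irf5, Irf7 and Irf8, factors that switch on interferons and their targets, had log2 differences between -0.14 and 0.12, and that of Irf9 was -0.36 (adjusted p = 0.118). Stat2, the partner of IRF9 in the type I response, was uneven among the lesions. It lay between 9.08 and 9.71 in lesions 1 to 4 and 9 to 11 and between 7.81 and 8.96 in the others, against 7.40 to 8.45 in the wild-type pituitaries. Its log2 difference was 0.64 (SE 0.29, adjusted p = 0.142). Trim25, a ubiquitin ligase that acts in RNA sensing, had its 2 highest values outside lesion 5, of 9.23 and 9.10, in lesions 9 and 4 of the same set. Its log2 difference was 0.25 and that of the RNA sensor Ifih1 was 0.01, and neither passed. Stat2 and Trim25 passed in the fit of lesions 1 to 5 alone with the replicate number as a block, at 1.35 (adjusted p = 0.00245) and 0.68 (adjusted p = 0.0229). That fit counted lesions 1 and 2 of adenoma 1, and lesions 3 and 4 of adenoma 2, as separate samples. These 4 lesions are also of the set with high Stat2, and its blocks join samples that share only a number. The fit therefore does not show a difference between the groups.

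Of the 18 antiviral effectors 2 were lower and none higher, beside 9.06% and 8.49% of all probe sets, and their median log2 difference was -0.18. Ifi44, an interferon-induced protein of poorly known function, had values of 6.52 to 7.27 with a median of 6.75 in the adenomas, against 7.54, 8.38, 8.25, 7.97 and 7.43 in wild-type pituitaries 1 to 5. All adenomas were below all wild-type pituitaries (log2 difference -1.03, SE 0.17, adjusted p = 0.0011). It was the only gene of the list that passed and differed more than 2-fold. Oasl, a member of the oligoadenylate synthetase family, had values of 6.28 to 7.32 with a median of 6.41 in the adenomas, against 7.86, 7.62, 7.44, 7.07 and 6.86 in wild-type pituitaries 1 to 5. Its log2 difference was -0.75 (SE 0.20, adjusted p = 0.0166), and 6 of 9 adenomas lay below all wild-type pituitaries. The other 16 had log2 differences between -0.81 and 0.44 and did not pass. At the low end were Rsad2 (-0.81, adjusted p = 0.0644), Oas1b (-0.54), Mx2 (-0.46), Bst2 (-0.46), Parp9, an ADP-ribosyltransferase family member (-0.36), and Oas1a (-0.33). Ifi35 at -0.25, the RNA-activated kinase Eif2ak2 (PKR) at -0.10, Ifit1 at -0.05, Isg15 at -0.01 and Ifit3 at 0.03 lay nearer 0. The exonuclease Isg20 at 0.13, Usp18, which removes ISG15 from proteins, at 0.19, Mx1 at 0.33, Ifi27 at 0.43 and Ifit2 at 0.44 lay above 0. Oas1a, Oas1b and Oasl, Mx1 and Mx2, and Gbp2 and Gbp5 are related in sequence, and signal shared between related genes cannot be told apart here.

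Of the 6 genes of the immunoproteasome and antigen presentation, Tap2 was lower and the other 5 did not pass. Tap2, a chain of the transporter that carries peptides to MHC class I, had values of 6.85 to 7.24 with a median of 6.89 in the adenomas, against 7.08, 7.79, 7.81, 7.86 and 7.11 in wild-type pituitaries 1 to 5 (log2 difference -0.56, SE 0.14, adjusted p = 0.0106). The wild-type values were high in the 3 males (pituitaries 2 to 4) and low in the 2 females. The log2 difference was -0.83 in males and -0.14 in females, and the interaction did not pass after adjustment (p = 0.000974, adjusted p = 0.312, limma). No other gene of the list reached an unadjusted p under 0.05 in the interaction, where 6.78% of all probe sets did and 0 of 29214 passed after adjustment. B2m, the light chain of MHC class I, which the study used as its reference gene in quantitative PCR, averaged 11.94 ± 0.20 in the adenomas and 11.82 ± 0.29 in the wild type (SD, n = 9 and 5, adjusted p = 0.574). The log2 differences of Psmb9, Psmb10, Psmb8 and Tap1 were -0.52, -0.25, -0.21 and -0.07.

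Gbp2 and Gbp5, interferon-induced GTPases, averaged 0.73 and 0.88 higher on the log2 scale in the adenomas but missed the threshold (adjusted p = 0.0757 and 0.0578). With the 08 or 09 beginning of the sample number as a block both passed, Gbp2 at 0.79 (adjusted p = 0.0495) and Gbp5 at 0.98 (adjusted p = 0.0149). Outside adenoma 3 their highest values were in lesions 14 to 17, of adenomas 7 to 9. Gbp5 lay between 7.39 and 7.87 there, against 5.63 to 6.40 in the wild-type pituitaries. All 4 of these lesions had sample numbers beginning with 09, and with the 09 samples alone Gbp5 was 1.31 higher (adjusted p = 0.0282) and Gbp2 1.23 higher (adjusted p = 0.0145), against 0.59 (adjusted p = 0.382) and 0.25 (adjusted p = 0.792) with the 08 samples alone. All 09 adenomas were from females and all male adenomas were 08, so among the adenomas the beginning and sex cannot be fully told apart. Gbp5 was 1.27 higher in the adenomas among females and 0.40 higher among males (interaction adjusted p = 0.826). By the labels' ages, no gene of the list passed for a slope per month within the adenomas (smallest adjusted p = 0.234), and 5 had an unadjusted p under 0.05, where 11.8% of all probe sets did. After adjustment 1 of 29214 probe sets passed for age (0.00342%).

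The second question was whether single lesions or single wild-type pituitaries showed a raised response. One lesion did. Lesion 5, one of 3 lesions of adenoma 3 from a 10-month-old male, was the highest of all 21 arrays for 31 of the 39 genes. It exceeded the median of the other 15 lesions by more than 1 on the log2 scale for 26 of the 39 genes and by more than 2 for 14, where 2.31% of all genes exceeded it by more than 1. The other 15 lesions had 0 to 2 such genes each, and the wild-type pituitaries had none above their own group. The median deviation of the 39 genes was 1.65 in lesion 5, against -0.23 to 0.16 in the other lesions and -0.43 to 0.26 in the wild-type pituitaries. Since the lesion was picked out by its values, no test was applied to it.

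**Figure D2:**
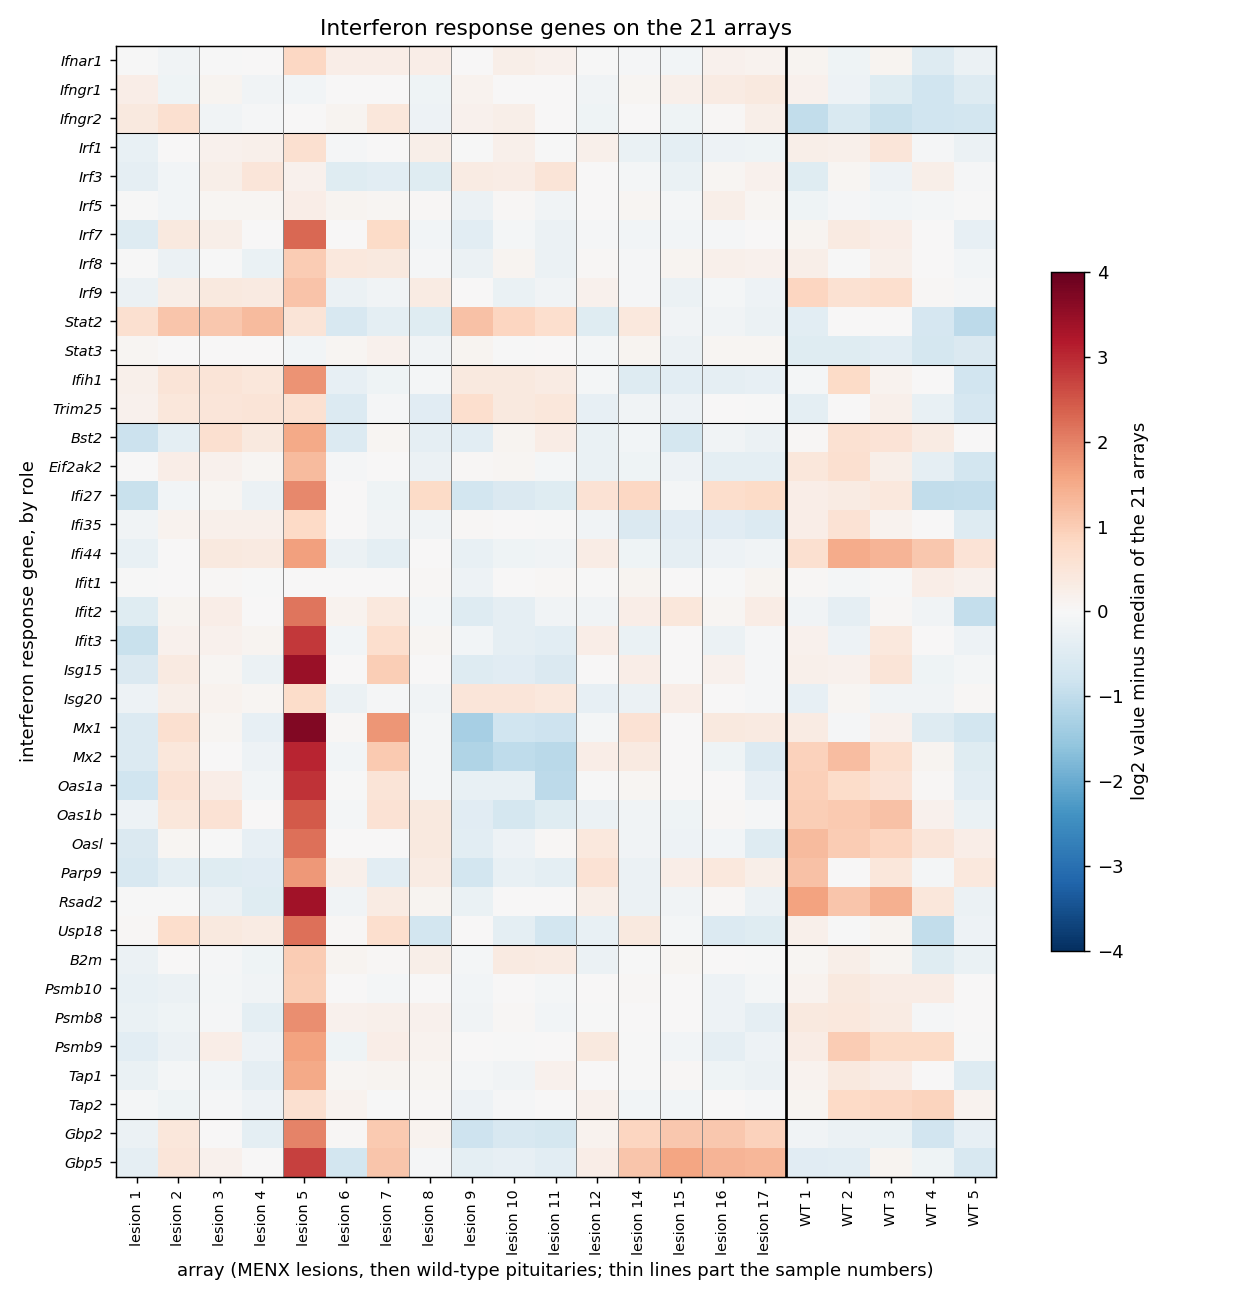
Log2 value of each interferon response gene (rows, by role) on each array (columns, the 16 lesions and then the 5 wild-type pituitaries), minus its median over the 21 arrays; thin vertical lines part the sample numbers. Lesion 5 forms a column of raised values among the antiviral effectors, immunoproteasome genes and guanylate-binding proteins. Stat3 and Ifngr2 differ by group, while Ifngr1 overlaps between the groups. None of these is raised in lesion 5 above the other lesions.

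Of the 18 antiviral effectors 17 were highest in lesion 5, with a median excess of 2.12. Mx1, a dynamin-like GTPase that blocks viruses, was 9.60 in lesion 5, against 4.55 to 7.64 with a median of 5.89 in the other lesions and 5.14 to 6.23 in the wild-type pituitaries. This was 13.1-fold above the median of the other lesions. Isg15, a ubiquitin-like modifier, was 9.89 in lesion 5, against 5.84 to 7.42 with a median of 6.43 in the other lesions and 6.27 to 6.93 in the wild-type pituitaries. Rsad2 (viperin) was 10.05 in lesion 5, against 6.18 to 7.02 with a median of 6.65 in the other lesions and 6.46 to 8.28 in the wild-type pituitaries. Isg15 and Rsad2 were thus 11-fold and 10.6-fold above the other lesions, with no overlap with any other array. Mx2, Oas1a, Ifit3, Oas1b and Oasl followed at 8.91-, 7.58-, 7.28-, 5.75- and 4.95-fold. Of the others, Usp18, Ifit2, Parp9 and Ifi27 exceeded the median of the other lesions by 2.19, 2.05, 2.05 and 2.01 on the log2 scale, Ifi44, Bst2 and Eif2ak2 by 1.79, 1.74 and 1.30, and Ifi35 and Isg20 by 0.91 and 0.73. Ifi44, which was lower in the adenomas as a group, was 8.52 in lesion 5, above the highest wild-type pituitary at 8.38. Ifit1 stayed between 3.11 and 3.56 on all arrays, near the low end of the scale, whereas its neighbours in the family, Ifit2 and Ifit3, were 8.56 and 8.69 in lesion 5.

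Among the lesions, all 6 immunoproteasome and antigen presentation genes and both guanylate-binding proteins were highest in lesion 5 as well. Tap2 was 7.62 there, below 7.79, 7.81 and 7.86 in wild-type pituitaries 2, 3 and 4, while the others were above every wild-type pituitary. Psmb8, a catalytic subunit of the immunoproteasome, was 8.38 in lesion 5, against 6.14 to 6.72 in the other lesions, and Tap1 was 8.62, against 6.75 to 7.27. Gbp5 was 9.03 in lesion 5, against 5.54 to 7.87 in the other lesions. Among the transcription factors Irf7, the amplifier of the type I response, was 8.80 in lesion 5, against 5.96 to 7.24 in the other lesions, and the RNA sensor Ifih1 (MDA5) was 9.46, against 7.15 to 8.19. The genes for which lesion 5 was not the highest lesion were Ifngr1, Ifngr2, Irf3, Stat2, Stat3, Trim25 and Ifit1. Of the 28 genes with a promoter window that were highest among the lesions in lesion 5, 18 held the ISRE core, and of the 6 with a window that were not, 0 did. These 6 were receptors, transcription factors and Trim25, while most of the 28 were antiviral effectors, antigen presentation genes or guanylate-binding proteins. The make-up of the list and the lesion 5 values cannot be told apart in this split, which is a description.

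**Figure D3:**
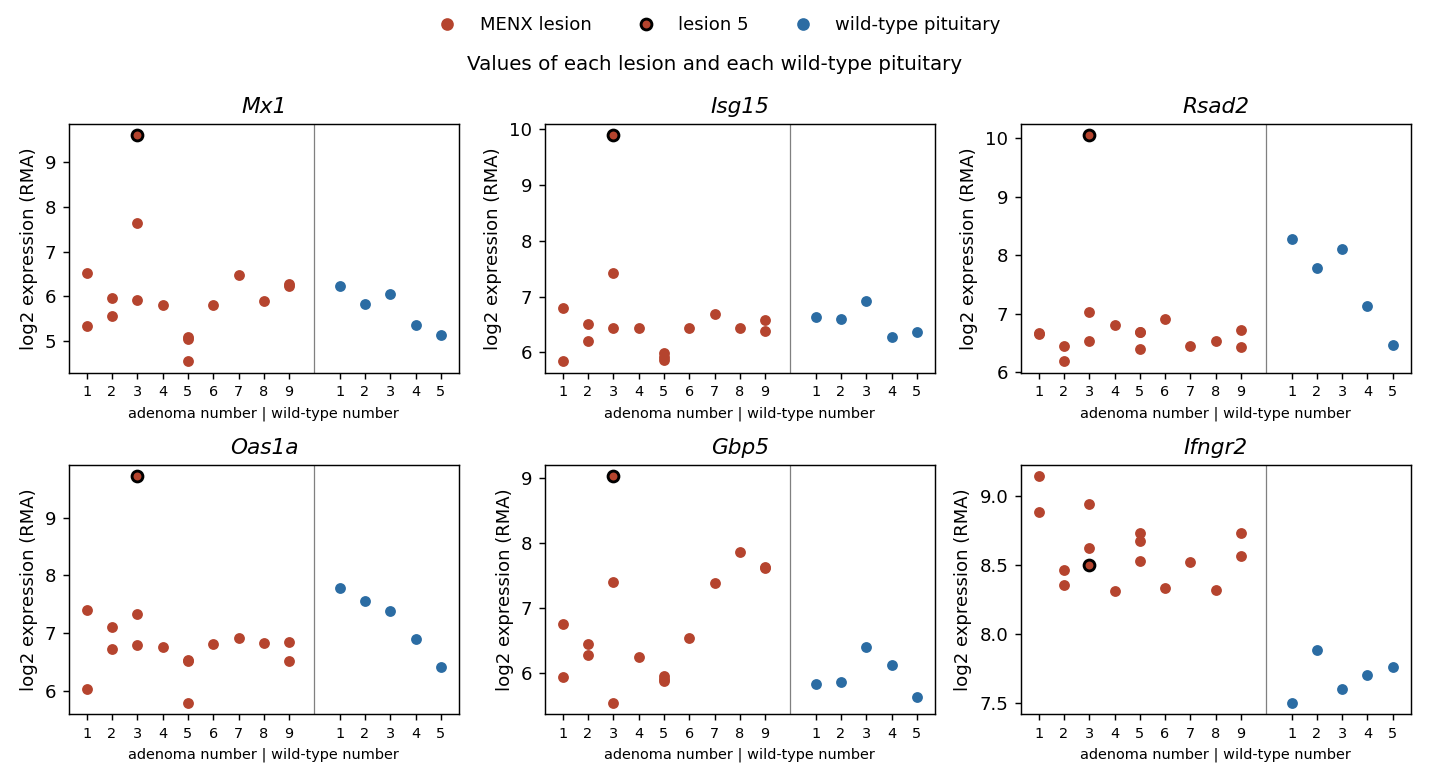
Log2 expression of 6 genes in each lesion (red, by adenoma number 1 to 9) and each wild-type pituitary (blue, 1 to 5); lesion 5 has a black rim. Lesion 5 stands at 9.60 for Mx1, 9.89 for Isg15 and 10.05 for Rsad2, above every other array, and lies within the lesions for Ifngr2.

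The other lesions of adenoma 3 did not show a raised response over the list. In lesion 7, 2 genes exceeded the median of the other lesions by more than 1. Lesion 5 exceeded the mean of lesions 6 and 7 by more than 1 for 25 of the 39 genes (1.96% of all genes), with a median excess of 1.43. Lesion 6 was unremarkable, with a median deviation of 0.00. Lesion 7 had a median deviation of 0.16, as had lesion 2 of adenoma 1. It lay above lesion 6 for 29 of 39 genes, by more than 1 for 4 of them, and was second to lesion 5 for 8 of the 32 genes in which lesion 5 led the lesions. Mx1 was 7.64 in lesion 7 and 5.93 in lesion 6, Mx2 was 8.67 and 7.52, Gbp5 was 7.40 and 5.54, and Gbp2 was 8.27 and 7.27. Gbp5 and Gbp2 in lesion 7 were within the range of lesions 14 to 17, of 7.39 to 7.87 and 8.08 to 8.30. For Gbp5, lesion 6 was the lowest of all lesions. Within adenoma 3 the spread between lesions exceeded 1 for 26 of the 39 genes (5.21% of all genes), within adenoma 1 for 4 (0.4%), and within adenomas 2, 5 and 9 for none. Over all probe sets, lesion 5 correlated with lesions 6 and 7 at 0.980 and 0.978, which correlated with each other at 0.990, and with lesions of other sample numbers at 0.966 to 0.979, as a description.

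**Figure D4:**
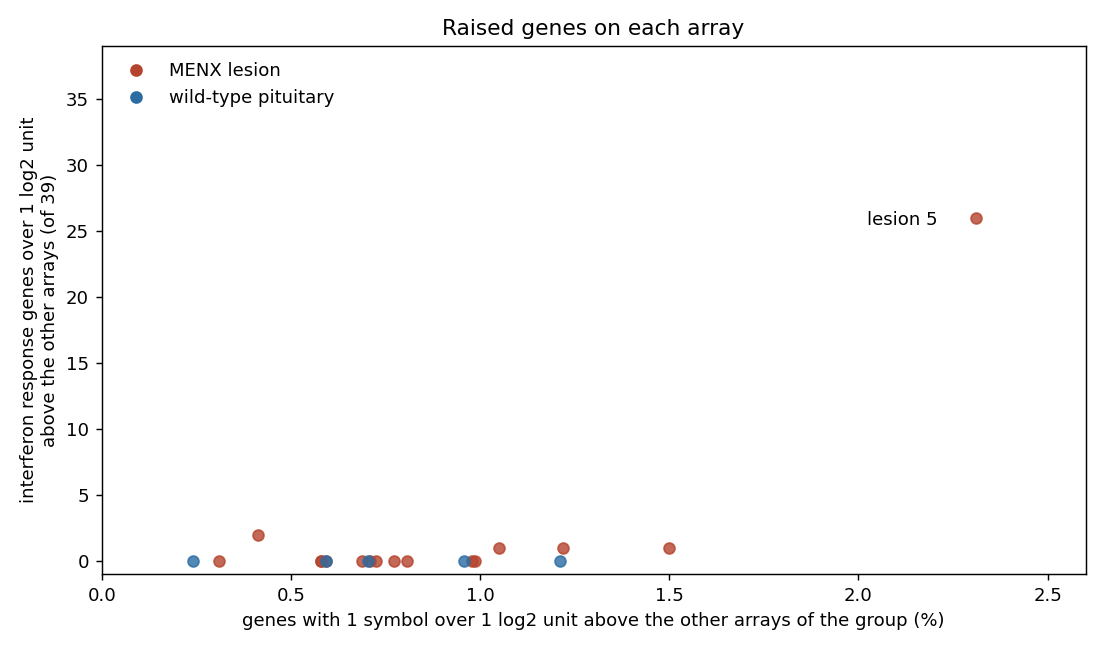
Number of the 39 interferon response genes that exceed the median of the other arrays of the group by more than 1 log2 unit (vertical axis) against the percentage of all genes that do so (horizontal axis), for each lesion (red) and wild-type pituitary (blue). Lesion 5 stands at 26 genes and 2.31%, all other arrays at 0 to 2 genes and at most 1.5%.

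Other genes of the pathway, from a list of 40 measured genes, followed the same lines in part. In the adenomas against the wild type, Myd88 and Socs3 were higher (log2 differences 0.45 and 0.31, adjusted p = 0.0105 and 0.0168), Adar, Isg20l2 and Trim21 were lower (-0.38, -0.41 and -0.58, adjusted p = 0.0314, 0.00472 and 0.0234), and 35 did not pass. The background was 8.49% of all probe sets higher and 9.06% lower, and the median log2 difference of the 40 genes was -0.11. In lesion 5, 23 of the 40 were the highest of the lesions, where 13.8% of all genes were. Of the 40, 19 exceeded the median of the other lesions by more than 1, where 2.31% of all genes did. Cxcl10, a chemokine induced by interferon gamma, was 9.36 in lesion 5, against 4.99 to 5.96 in the other lesions and 5.26 to 6.19 in the wild-type pituitaries (16.2-fold above the median of the other lesions). Of the interferon genes themselves, Ifnb1 and Ifng were on this list, and neither was raised in lesion 5: Ifnb1 was 4.28 and Ifng 4.37 in lesion 5, against medians of 4.38 and 4.37 in the other lesions. On all arrays Ifnb1 lay between 4.14 and 4.74 and Ifng between 4.20 and 4.82, well below the lowest array median of 6.36. At such low values these probe sets may not show whether the genes were expressed.

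Markers of immune cells moved in part with lesion 5. Of 17 macrophage markers 6 were highest there, and of 13 T and NK cell markers 6, where 13.8% of all genes were. Ptprc (CD45) was 8.41 in lesion 5, against at most 7.55 in the other lesions, and Cd3g was 5.12, against at most 4.45. In each of these 2 lists only 1 gene, Ptprc and Cd3g, exceeded the median of the other lesions by more than 1. The other CD3 chains did not follow Cd3g. Cd3d and Cd3e were 5.05 and 5.08 in lesion 5, against up to 5.40 and 5.62 in the other lesions. All of these CD3 values lay below the lowest array median of 6.36. The summed unlogged level of the T and NK cell markers was 998 in lesion 5, against 646 to 924 in the other lesions and 673 to 955 in the wild-type pituitaries. That of the macrophage markers was 3833 in lesion 5, within the 2079 to 4415 of the other lesions and above the 1435 to 2255 of the wild-type pituitaries. Cd163 and Mrc1, markers of tissue macrophages, were 6.30 and 6.31 in lesion 5, below their adenoma medians of 7.06 and 7.52, and none of the 11 endothelial or 2 B cell markers was highest there. The part of these cells in the response of lesion 5 was not tested. Between the groups, 9 of 17 macrophage markers were higher in the adenomas, where 8.49% of all probe sets were. Their median log2 difference was 0.89, as against -0.01 for the interferon response genes.

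The mean of adenoma 3 carried lesion 5, so the group comparison was repeated without this lesion, a choice made after its values were seen. Then 7 of 39 genes were lower in the adenomas, against 9.2% of all probe sets, and 3 were higher, against 8.61%. The genes added to Ifi44, Oasl and Tap2 were Rsad2 (log2 difference -0.93, adjusted p = 0.013), Psmb10 (-0.28, 0.0179), Psmb9 (-0.57, 0.0209) and Bst2 (-0.52, 0.046), and the median over the list was -0.07. Psmb9 and Psmb10 are catalytic subunits of the immunoproteasome, and Bst2 (tetherin) holds budding virus at the cell surface. With lesion 5 the same 4 genes had adjusted p = 0.0644, 0.0725, 0.0558 and 0.103 for Rsad2, Psmb10, Psmb9 and Bst2.

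No wild-type pituitary was raised in this way, but the 5 fell into a high and a low set for many genes. For 22 of 39 genes, 11 of the 18 antiviral effectors among them, pituitaries 1, 2 and 3 all lay above pituitaries 4 and 5, which held for 20% of all genes. Pituitary 5 was the lowest for 22 genes of the list and for 23.8% of all genes. Rsad2 was 8.28, 7.78, 8.10, 7.13 and 6.46 in pituitaries 1 to 5, a 3.55-fold range, and Mx2 was 8.55, 8.84, 8.30, 7.73 and 7.12. The range exceeded 1 for 14 of 39 genes, against 12.4% of all genes. The summed unlogged level of the 18 antiviral effectors was 13066 in lesion 5 and 2033 to 3448 in the other lesions, against 4131, 4143, 4025, 2518 and 2238 in wild-type pituitaries 1 to 5. Pituitaries 1 to 3 thus exceeded every lesion but lesion 5, and pituitaries 4 and 5 lay among the lesions. By the labels, pituitaries 1 and 2 had sample numbers beginning with 08 and pituitaries 3, 4 and 5 with 09, so both low pituitaries were 09 and 2 of the 3 high ones 08. Pituitaries 1 and 5 were from females. The part of either in this split was not tested.

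**Figure D5:**
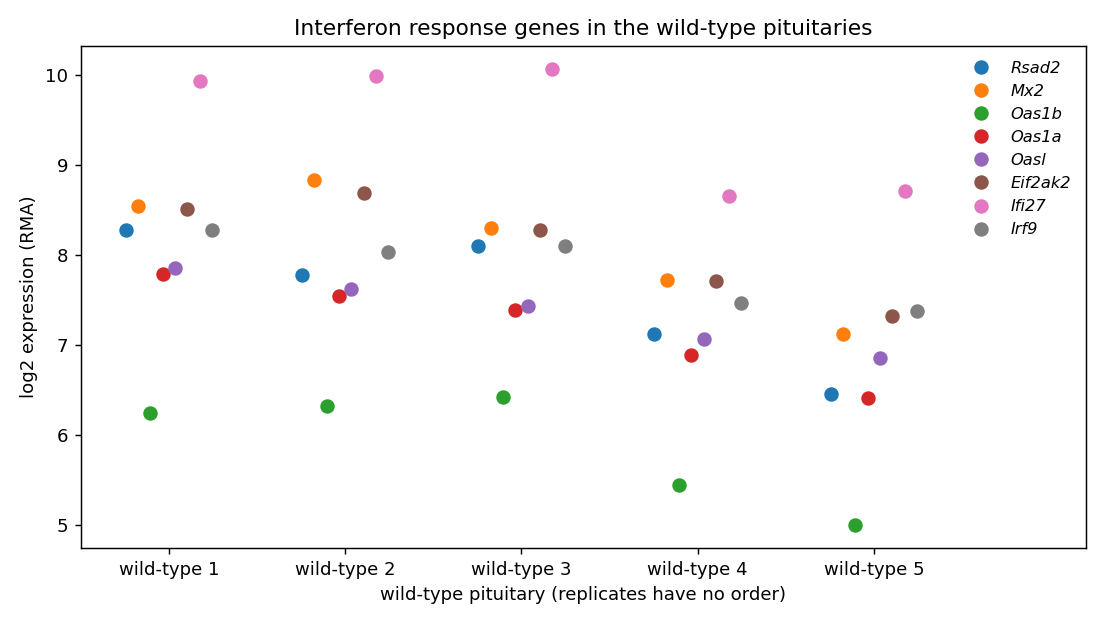
Log2 expression of 8 of the 22 interferon response genes for which pituitaries 1 to 3 lay above 4 and 5, chosen after their values were seen; points are single arrays and replicates have no order. Rsad2, for example, lies at 7.78 to 8.28 in pituitaries 1 to 3 and at 7.13 and 6.46 in 4 and 5.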

How the data were processed

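The study started from total RNA of 16 MENX pituitary lesions and 5 wild-type pituitaries. Amplified cDNA was hybridised to Rat Gene 1.0 ST arrays. The authors processed the arrays with RMA at the gene level in Affymetrix Expression Console, and the deposited values are log2 expression values (2.01 to 14.09). Versions were not given in the sources used here. Probe sets were named from the platform annotation: 15310 of 29214 had 1 gene symbol, 323 several and 13581 none, and no gene was named from a probe set with several. No columns of other samples were present, and no 2 arrays were identical. The depth of an array is not a read count, so the number of arrays limits the precision.

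Lesions with the same sample number were averaged, and adenomas and wild-type pituitaries were compared with limma (lmFit and eBayes, version 3.58.1, R 4.3.3), with Benjamini-Hochberg adjustment over all 29214 probe sets and a threshold of 0.05. Nothing in the labels beyond the biological replicate number states how rats were sampled, and p-values measure the spread between these samples. Folds are powers of 2 of log2 differences. The sex interaction and the age slope within adenomas were fitted in the same way. Single arrays were described by their deviation from the median of the other arrays of their group, with no test. The fits were tested on simulated data. Summaries used Python 3.11.15 and pandas 2.3.3, and sequences came from RefSeq tables of GRCr8.

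Alternatives were lesions as separate samples with the sample number as a random block, the methods' t-test, the 08 or 09 beginning of the sample number as a block or each alone, a replicate block, sex as a covariate, a filter on dim probe sets, centring, quantile normalization, array weights, robust fitting, the mean over probe sets, a 2-fold minimum and leaving out each sample. The members and gene lists were chosen with earlier results of these data known. Every member with a probe set is accounted for by role, values per sample are given for members past the test and members that mark a single array, and other pathway genes past the test are named.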

Additional observations from a re-analysis of the deposited data

Results flagged for a closer look

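Of 78 groups checked (39 genes in the 9 adenomas and in the 5 wild-type pituitaries), 8 held a sample far from the others by Dixon's criterion. Chance flags about 1 in 20 independent groups, but these genes share the same arrays. Lesion 5, which had been picked out by these values, is also part of adenoma 3, so the count is a description and not a test. In all 8 it was adenoma 3 that was highest among the adenomas, and no wild-type pituitary was far from its group. The values of adenoma 3 were 7.91 for Isg15 (next highest adenoma 6.69), 7.95 for Oas1a (6.92), 7.87 for Rsad2 (6.90), 7.00 for Ifit3 (6.12), 7.52 for Irf7 (6.61), 6.65 for Irf8 (6.23), 7.27 for Psmb8 (6.69) and 7.67 for Tap1 (7.20). These are means of lesions 5, 6 and 7, and lesion 5 was the highest of the 3 for each of the 8 genes.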

How the results depend on the processing

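The count of 3 interferon response genes higher became 1 with the 08 samples alone, 5 with the 09 samples alone and 0 with a 2-fold minimum, and lay between 2 and 4 when each sample was left out in turn. The count of 3 lower became 5 with the filter on dim probe sets, 0 with the 08 samples alone, 1 with the 09 samples alone, 5 with the 08 or 09 beginning as a block, 0 with the replicate block, 7 without lesion 5 (added after seeing the data) and 1 with a 2-fold minimum. Leaving out each sample gave 3 to 8 lower genes, with 6 without adenoma 3 and 8 without wild-type pituitary 5. Over all probe sets, 2479 higher became 363 with the 08 samples alone and 417 with a 2-fold minimum, and 1573 to 3106 with 1 sample left out, the lowest without wild-type pituitary 4. The 2648 lower became 1703 with the filter, 4014 with the methods' t-test, 345 with the 08 samples alone and 307 with a 2-fold minimum, and 1649 to 3780 with 1 sample left out. The fits on 1 beginning use fewer samples and the filter tests fewer probe sets; the cause of the other changes was not tested. The median deviation of lesion 5 was 1.52 against all 21 arrays in place of 1.65.

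Of 16 genes past the threshold in some fit, 2 changed sign in 1 fit each: Ifngr1 to -0.01 with the 08 samples alone, and Oas1b, at -0.54 without it, to 0.04 with the replicate block. Stat3 passed in every fit (largest adjusted p = 0.037). Ifngr2 was lost with the 08 samples alone (adjusted p = 0.0548), Ifi44 there (0.0821), and Tap2 and Oasl with either beginning alone (0.246 and 0.0904 for 08, 0.0558 and 0.0826 for 09). Oasl was also lost with lesions as separate samples under a random block and under the methods' t-test. Of the 23 genes never past the threshold, 18 changed sign in some fit. Lesions and wild-type pituitaries share replicate numbers 1 to 5 in the labels, and deviations of same-numbered samples correlated at 0.0135 to 0.217, with the own number the best match for 2 of the 5 lesions, so they share only a number. The fit with the replicate block holds lesions 1 to 5 alone, unaveraged, so lesions of the same sample number count as separate samples. In it, Ifngr1, Ifi44, Oasl and Tap2 were not past the threshold, and Stat2 (1.35, adjusted p = 0.00245) and Trim25 (0.68, adjusted p = 0.0229) were. Gbp5 passed with centring (0.92), quantile normalization (0.95), the filter (0.88), the mean over probe sets (0.88), the beginning as a block (0.98), the 09 samples alone (1.31), and without adenoma 4 (0.95) or 5 (0.99). Gbp2 passed with the beginning as a block (0.79), with the 09 samples alone (1.23) and without adenoma 5 (0.87). No gene passed for the sex interaction or the age slope under any alternative run (limma), with 1 to 3 and 5 to 8 genes at an unadjusted p under 0.05.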

Other observations

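Lesion 5 stood apart in more than the interferon response. Of the 40 named genes with the largest excess over the other lesions, 7 were interferon response genes, 3 came from the list of other pathway genes and 30 from neither. The leading genes, chosen after their values were seen, were Fabp6, an ileal bile acid-binding protein, at 11.36 in lesion 5 and a median of 5.13 in the other lesions (75.2-fold), Svs5 at 10.09 and 4.78, the B cell chemokine Cxcl13 at 9.55 and 4.35, and Cd52, a surface protein of lymphocytes, at 9.72 and 5.11. Cyp11a1, which starts steroid synthesis from cholesterol, was 12.85 in lesion 5, against a median of 8.77 and a maximum of 10.61 in the other lesions, and Star, which delivers the cholesterol, was 9.62, against a median of 6.03. Oasl2, Samd9l and Ifi47, which belong to interferon-induced families but were not on either list, were among the 30, at 9.00, 9.48 and 9.49 in lesion 5 and medians of 6.11, 6.57 and 6.95 in the other lesions.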
